A study of Mus musculus with 2 samples.

Results

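The 10 genes described here encode proteins that neutrophils and their precursors store in granules or hold in the cytoplasm. Mpo, Elane, Prtn3 and Ctsg encode proteins of primary granules, Ltf, Ngp, Camp and Lcn2 encode proteins of secondary granules, and S100a8 and S100a9 encode a pair of calcium-binding alarmins. The genes were taken as a list of symbols, and every non-control probe whose transcript identifier belongs to one of them was used. This gave 11 probes for 10 of the 21360 genes named on the array, with 2 probes for Camp and 1 for each other gene.

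Expression was compared between LSK cells of nondiabetic mice and of mice made diabetic with STZ (streptozotocin), a toxin that is taken up by insulin-producing beta cells. LSK cells lack the markers of mature blood lineages, carry Sca-1 and c-kit on their surface, and contain the hematopoietic stem cells and early progenitors of the bone marrow. The strain was C57BL/6J and the sex female by the array labels, while the paper speaks of males, and those labels give no age, STZ dose or time after STZ. For each condition, total RNA from 3 mice (8.3 ng per array) was amplified, labelled with Cy3 and hybridized to 1 Agilent 1-colour array, so that no value belongs to a single mouse.

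Neutrophil granules form in sequence. Proteins of primary granules are made mainly at the promyelocyte stage and those of secondary granules at the later myelocyte stage, while low transcript levels of genes such as Mpo and Elane already appear in progenitors that are primed towards the myeloid lineage. S100A8 and S100A9 join to form calprotectin, which makes up much of the cytoplasmic protein of neutrophils and, once released, signals through receptors such as TLR4 and RAGE.

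The scanner software placed 62.7% of the nondiabetic and 63.9% of the diabetic array's non-control spots well above background, and it marked 0 spots as saturated on either. The genes of the LSK gate were well above background on both arrays. Kit, which encodes c-kit, had 4635 (nondiabetic) and 4735 (diabetic), and Ly6a, which encodes Sca-1, had 475 and 701. Of 10 stem and progenitor markers, 9 were well above background in nondiabetic and 10 in diabetic mice. In what follows, an intensity is the background-corrected signal before scaling, given with the error that the software assigns to it. A log2 ratio is diabetic over nondiabetic after each array was divided by its 75th percentile (168 and 182), and its error is carried over from the 2 signals. These errors are the software's estimate for the measurement within an array, not an observed spread. They leave out the variation from mouse to mouse, sort to sort or amplification to amplification. For bright probes the error is close to a fixed share of the signal, and the log2 ratios of Mpo, Ctsg and S100a9 all have an error of 0.20. A ratio in multiples of its error then mainly restates the size of the ratio. No difference had a replicate check and no test was made, since each condition has a single array.

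Of the 10 genes, 8 were measured on both arrays, Ngp had a bound and Ltf had no ratio. Among the 9 with a ratio or bound, 1 gene, S100a8, was at least 2-fold lower in diabetic mice and 0 were at least 2-fold higher, while over 15192 genes 10.1% were at least 2-fold lower and 11.0% at least 2-fold higher. The share that was lower, 1 of 9, was thus close to that of all genes. Their median log2 ratio was -0.10, with 4 values above 0 and 5 below, against 0.02 over all genes, and it was -0.0050 with another background correction (normexp) and -0.0011 without bounds. The 9 genes with a ratio or bound therefore did not shift as a block on these arrays, and each group of them held values of both signs. Ordered by log2 ratio they ran from S100a8 through Mpo, Ngp (by its bound), Ctsg, Prtn3, S100a9, Lcn2 and Elane to Camp, and neighbours in this order differed by more than their combined error only between S100a8 and Mpo, Ctsg and Prtn3, and Lcn2 and Elane. This order depends on the processing: under normexp Mpo (-0.66) came before S100a8 (-0.54), Ctsg (-0.52) before Ngp (-0.24) and Lcn2 (0.10) before S100a9 (0.14), and with the mean over its probes Camp (0.40) came before Elane (0.50). With no detection filter, Ngp (-0.79) came before Mpo (-0.68).

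**Figure D1:**
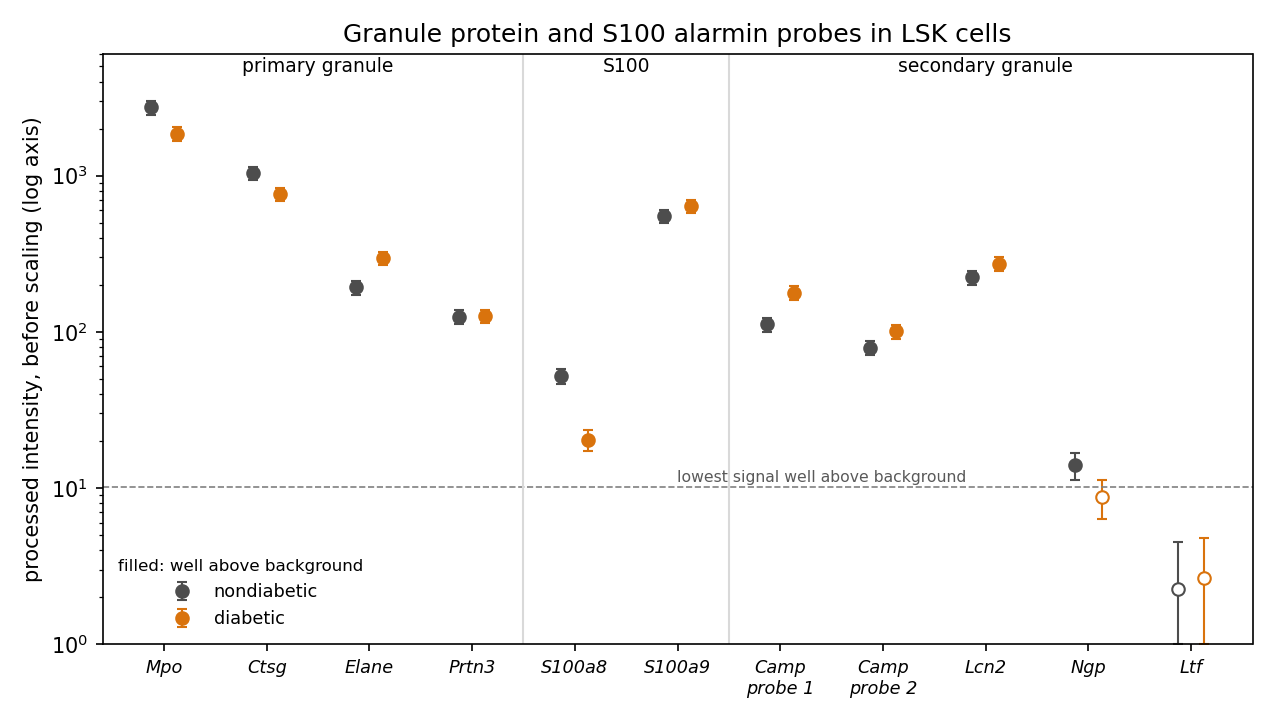
Processed intensity before scaling (log axis) of the 11 probes on the nondiabetic (grey) and diabetic (orange) array, 1 point per array, with bars for the error given by the scanner software. Filled points were well above background; the gap is widest for S100a8 (52.2 and 20.4), and the open points are those of Ltf and of Ngp in diabetic mice.

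Among the primary granule genes, Mpo and Ctsg had lower values in diabetic mice, Elane had a higher one and Prtn3 was nearly equal. Mpo encodes myeloperoxidase, the enzyme that makes hypochlorous acid from hydrogen peroxide and chloride. Its probe (A_55_P1995537, transcript NM_010824, chr11:87793784-87804412 in GRCm38.p6) read 2731 ± 273 in nondiabetic and 1851 ± 185 in diabetic mice. After scaling, the log2 ratio was -0.68 ± 0.20, or 1.60-fold lower, which is 3.32 times its error. This placed Mpo at percentile 16.4 of the ratios of all genes, so that its difference exceeded the error assigned by the software and was of a size that many genes showed. In these bulk samples, fewer cells that carry a transcript and less of it per cell cannot be told apart.

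Ctsg encodes cathepsin G, a serine protease with chymotrypsin-like activity. The signal of its probe (A_51_P416546, NM_007800, chr14:56099885-56102574) was 1036 ± 104 in nondiabetic and 761 ± 76.1 in diabetic mice. This gave a log2 ratio of -0.56 ± 0.20, or 1.48-fold lower, 2.76 times its error and at percentile 19.6. Ctsg and Mpo lie on different chromosomes, and their ratios differed by less than the error of either.

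Elane and Prtn3 encode neutrophil elastase and proteinase 3, closely related serine proteases whose genes are neighbours on chromosome 10. Elane (A_66_P137219, NM_015779, chr10:79886312-79888216) read 192 ± 19.4 in nondiabetic and 295 ± 29.6 in diabetic mice. Its log2 ratio of 0.50 ± 0.21 corresponds to 1.42-fold higher and to 2.44 times its error. Elane was the only primary granule gene of these 4 with a value above 0, and it stood at percentile 76.2. Prtn3 (A_51_P209818, NM_011178, chr10:79879667-79883174) gave 125 ± 12.7 and 126 ± 12.8, a log2 ratio of -0.10 ± 0.21. The ratio of Prtn3 was 0.49 times its error, so that no difference between the conditions was detectable for it. The 2 genes are 3137 bp apart, and the log2 ratio of Elane minus that of Prtn3 was 0.60 ± 0.29.

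S100a8 showed the largest difference of the 9 genes with a value, except under normexp, where that of Mpo was larger. It encodes the calcium-binding protein MRP8, a partner of S100A9 in calprotectin. Its probe (A_51_P256827, NM_013650, chr3:90669071-90670034) read 52.2 ± 5.68 in nondiabetic mice and 20.4 ± 3.00 in diabetic mice, both well above background. The log2 ratio was -1.48 ± 0.26, which is 2.78-fold lower and 5.59 times its error. Over all genes this is percentile 5.20, just above the 5th percentile of -1.50 and so not among the lowest 5%. With the other scalings and the authors' table the log2 ratio of S100a8 lay between -1.49 and -1.45, and the settings for dim or multiple probes do not touch a gene with a single probe well above background on both arrays. The call ended under normexp, which was run on median spot and local background signals with an offset of 50 and gave a log2 ratio of -0.54.

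S100a9, which encodes the partner protein MRP14, did not share this difference. Its probe (A_55_P1998471, NM_001281852, chr3:90692630-90695721) had 548 ± 54.8 in nondiabetic and 637 ± 63.8 in diabetic mice. After scaling the log2 ratio was 0.10 ± 0.20, which is 0.49 times its error and at percentile 55.4. The 2 genes lie 22595 bp apart on chromosome 3. Their log2 ratios differed by 1.58 ± 0.33, S100a9 minus S100a8, and under normexp the ratios lay closer together, at 0.14 for S100a9 and -0.54 for S100a8. The median of the S100 pair, -0.69, lies between values that do not resemble each other and describes neither gene.

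Among the secondary granule genes, Camp and Lcn2 had values above 0, Ngp was dim and Ltf was well above background on neither array. Camp encodes the precursor of the antimicrobial peptide CRAMP, the mouse cathelicidin. The brighter probe of Camp (A_55_P2039699, NM_009921, chr9:109847377-109849456) gave 111 ± 11.3 in nondiabetic and 178 ± 18.0 in diabetic mice. This is a log2 ratio of 0.56 ± 0.21, or 1.48-fold higher, 2.72 times its error and at percentile 78.3. The other probe of the same transcript (A_55_P2158102) had 79.1 ± 8.25 and 100.7 ± 10.3, a log2 ratio of 0.23 ± 0.21 that was 1.09 times its error. The probes of Camp thus had the same sign, and only the brighter one differed by clearly more than its error.

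Lcn2 encodes lipocalin 2, which binds bacterial siderophores and so withholds iron. Its probe (A_55_P2070869, NM_008491, chr2:32384637-32387739) read 223 ± 22.4 in nondiabetic and 272 ± 27.3 in diabetic mice. The log2 ratio of Lcn2 was 0.17 ± 0.21, within its error, at percentile 60.2. Ngp encodes neutrophilic granule protein, a relative of the cathelicidins and cystatins. Its signal (A_52_P429450, NM_008694, chr9:110419808-110423012) was 14.0 ± 2.79 in nondiabetic mice and 8.80 ± 2.48, not well above background, in diabetic mice. Set against the lowest signal that was well above background (10.2 on the nondiabetic and 10.1 on the diabetic array), Ngp was at least 1.51-fold lower. Both signals of Ngp were near that limit, and the error of the diabetic one reached it. Under normexp the bound of Ngp shrank from -0.59 to -0.24 on the log2 scale. Ltf encodes lactoferrin, the iron-binding protein of secondary granules, and its probe (A_52_P15388, NM_008522, chr9:111019292-111042766) had 2.24 ± 2.25 and 2.64 ± 2.15. These values of Ltf were near those of the 308 negative control spots, with medians of 2.35 and 2.32 and a 95th percentile of 2.63 and 2.58, so that no ratio was formed.

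Set side by side, all 4 primary granule genes were well above background on both arrays, while of the 4 secondary granule genes 3 were on the nondiabetic and 2 on the diabetic array. The median log2 ratio was -0.33 over the 4 primary granule genes and 0.17 over the 3 secondary granule genes with a value. The ranges overlapped, from -0.68 for Mpo to 0.50 for Elane and from -0.59, the bound of Ngp, to 0.56 for Camp. No gene of these groups that was measured on both arrays passed 2-fold. For Ngp a value at least 2-fold lower could not be shown at its signals, and Ltf had no ratio. The secondary granule median was 0.02 with a floor at the lowest signal well above background and 0.37 without bounds. The former includes a value for Ltf that comes from the floors of the 2 arrays and not from its signal. The groups are small and the difference between them was not tested.

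How far a ratio can be read depended on the signal. Genes measured on both arrays were divided by brightness into 3 groups of 4489, and the spread over repeated spots was read in each from probes with 5 or more spots. S100a8 fell in the dimmest group, where 23.9% of genes passed 2-fold (11.9% in the lower direction), and the median SD between spots was 0.24 (log2, 99 probes). Camp, Elane, Lcn2 and Prtn3 fell in the middle group, with 22.9% past 2-fold and an SD of 0.12 (81 probes). Mpo, Ctsg and S100a9 fell in the brightest group, with 6.86% past 2-fold, 2.65% at least 2-fold lower and an SD of 0.062 (57 probes). Differences past 2-fold were thus more frequent in the group of S100a8 than in that of Mpo, and none of the 11 probes was printed more than once.

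The genes next to the members on the chromosome did not follow them in a common direction. Of 17 genes, the nearest on each side and Cfd near Elane, 13 had a probe and 10 a ratio, with 1 at least 2-fold higher, 2 at least 2-fold lower and a median of 0.10. The neighbour of Prtn3 on the side away from Elane, Plppr3, had a log2 ratio of 1.26 on its brightest probe and -0.14 on the other, which would leave 0 higher and a median of -0.07. Next to Ngp, Klhl18 had -1.88, next to Camp, Nme6 had -1.02, and next to S100a8, S100a7a was well above background on neither array.

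The promoters of the members were read for short letter strings known as cores of sites for myeloid regulators, and for TATAAA, the TATA box. RefSeq (GRCm38.p6) gave the 250 bases before the start for all 10 members and for 32851 promoters in all, and 7 strings were searched on both strands. GAGGAA, a core of sites for PU.1, occurred in 7 of the 10 members and in 23.3% of all promoters, and GAGGAAG, which contains it, in 6 of 10 and 10.6%. All 4 primary granule genes held GAGGAAG, as did Lcn2 and S100a8. TTGCNNAA, a form of the site for C/EBP proteins, occurred in 4 members, Ltf, Ngp, Lcn2 and S100a9, and in 9.56% of all promoters, and 0 of the primary granule genes held it. A different form, TTNNGNAAT, which can overlap it, was in Ltf, Ngp and S100a9 and in 10.2% of all promoters. TGTGGT, a core for RUNX proteins, was in Ctsg and S100a9 (14.0% of all), TATAAA in Ctsg and S100a8 (12.4%), and AACNG, a core for MYB, in all 10 (74.2%). Camp held neither GAGGAAG nor TTGCNNAA. These matches describe letters in a window and show no binding, and the strings printed next were picked after the counts were known.

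Stretches of 60 bases are shown for the genes in which the primary and secondary groups differed in these letters, written 5′ to 3′ on the strand of the gene with each match inside the stretch in capitals. For the primary granule genes the capitals mark GAGGAAG, in Mpo (chr11:87793534-87793593, plus strand), Ctsg (chr14:56102758-56102817, minus strand), Elane (chr10:79886200-79886259, plus strand) and Prtn3 (chr10:79879545-79879604, plus strand).
Mpo: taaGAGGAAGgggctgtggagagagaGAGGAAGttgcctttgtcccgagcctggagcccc
Ctsg: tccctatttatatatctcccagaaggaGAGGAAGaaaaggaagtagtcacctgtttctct
Elane: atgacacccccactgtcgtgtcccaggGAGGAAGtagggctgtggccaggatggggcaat
Prtn3: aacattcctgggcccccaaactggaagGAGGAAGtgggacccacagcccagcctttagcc
For the secondary granule genes the capitals mark TTGCNNAA or its reverse complement, in Lcn2 (chr2:32387922-32387981, minus strand), Ngp (chr9:110419748-110419807, plus strand, the nearer to the start of its 2 matches) and Ltf (chr9:111019191-111019250, plus strand).
Lcn2: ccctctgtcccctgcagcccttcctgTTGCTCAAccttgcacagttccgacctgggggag
Ngp: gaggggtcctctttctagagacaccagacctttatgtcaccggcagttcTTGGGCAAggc
Ltf: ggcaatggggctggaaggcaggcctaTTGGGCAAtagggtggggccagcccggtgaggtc

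Other genes of the same compartments also varied in both directions. Of 11 other primary granule genes, 2 passed 2-fold upwards and 1 downwards, with a median log2 ratio of 0.27. Cst7, which encodes the protease inhibitor cystatin F, had 30.7 in nondiabetic and 110 in diabetic mice (1.73), and Bpi, which encodes a protein that binds bacterial endotoxin, was at least 2.19-fold higher. Ms4a3, a gene of granulocyte-monocyte progenitors, had 61.2 and 25.0 (-1.41). Ctsc, which encodes the protease that activates the products of Elane, Prtn3 and Ctsg, had 228 and 186 (-0.41), and Srgn, which encodes a proteoglycan of granules, had 1789 and 2337 (0.27). Neither Ctsc nor Srgn passed 2-fold.

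Of 18 other secondary and tertiary granule genes, 17 were on the array and 13 had a ratio or bound, with 3 at least 2-fold higher, 2 at least 2-fold lower and a median of -0.42. Mmp8, the neutrophil collagenase gene, had 157 in nondiabetic mice and 8.59, not well above background, in diabetic mice, a bound of at least 17.0-fold lower. Hp, which encodes haptoglobin, had 722 and 143 (-2.45). In the other direction, Chil3 had 22.7 and 120 (2.29), and Retnlg was at least 6.38-fold higher. Padi4 is counted in this list but encodes an enzyme that citrullinates histones, not a stored granule protein. It had 51.8 and 137 (1.29). The other probe of Padi4 had 20.8 and 36.5 (0.69) and did not pass 2-fold. Secondary and tertiary granule genes thus spread widely on both sides of Camp, Lcn2 and Ngp.

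**Figure D2:**
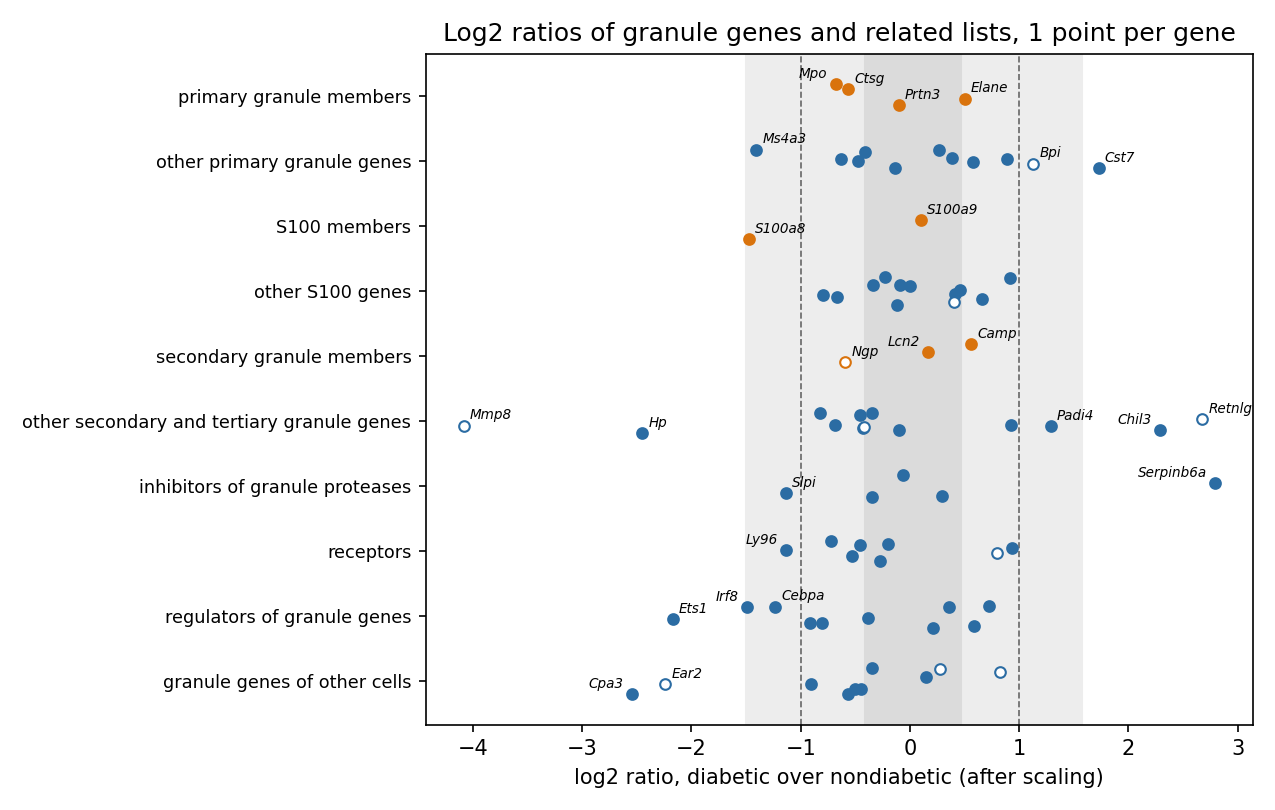
Log2 ratio of diabetic over nondiabetic after scaling (horizontal axis) for the members (orange) and related gene lists (blue), 1 point per gene by its brightest probe, with open points for bounds, dashed lines at 2-fold, and shading from the 5th to the 95th (light) and the 25th to the 75th (dark) percentile of all genes. S100a8 is the only member beyond the dashed lines, while the other secondary and tertiary granule genes reach from the bound of Mmp8 at -4.09 to that of Retnlg at 2.67.

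Beyond S100a8 and S100a9, 17 of 18 further genes whose symbol starts with S100 were on the array and 12 had a ratio or bound, with a median of -0.04 and 0 past 2-fold in either direction. They lay between -0.79 for S100pbp, a binding partner and not an S100 protein, and 0.92 for S100a6. By size, the ratio of S100a8 lay outside the range of these genes and that of S100a9 within it. Receptors for the released proteins were 9, of which 8 had a value, with a median of -0.37, 1 gene at least 2-fold lower and 0 past 2-fold upwards. That gene, Ly96, encodes MD-2, the partner of TLR4, and had 120 and 59.0 (-1.14), while Tlr4 itself had 14.3 and 29.7 (0.93) and Ager, which encodes RAGE, -0.45. Of 13 inhibitors of granule proteases, 10 were on the array and 5 had a ratio, with a median of -0.06. Slpi, which encodes an inhibitor of elastase and cathepsin G, had 241 and 119 (-1.13), Serpinb6a, an inhibitor of cathepsin G, had 14.4 and 108 (2.79), and Serpinb1a, an inhibitor of elastase, proteinase 3 and cathepsin G, had 864 and 1147 (0.29).

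Of 12 regulators of granule genes, 10 had a ratio, with 3 at least 2-fold lower, 0 at least 2-fold higher and a median of -0.59. Cebpa, which encodes the factor needed to enter the granulocyte and monocyte lineage, had 655 in nondiabetic and 301 in diabetic mice (-1.24), and Irf8, which favours monocytes over granulocytes, had 296 and 114 (-1.49). Ets1 had -2.17 on its brightest probe, and its other probe was at least 3.68-fold higher, so that its direction is unsettled. With that other probe, a choice made after seeing the data, 2 regulators were lower, 1 was higher and the median was -0.09. Gfi1, which restrains monocyte genes in granulocyte precursors, had 746 and 464 (-0.80), Myb had 1929 and 3451 (0.72), and Spi1, which encodes PU.1, had 253 and 414 (0.59). Cebpe, which encodes the C/EBP factor that drives secondary granule genes such as Ltf, Ngp and Camp, was well above background on neither array. Granule genes of other cells, such as granzymes and mast cell proteases, had 10 values among 16 genes on the array, with 2 at least 2-fold lower, Cpa3 (145 and 26.9) and Ear2, 0 at least 2-fold higher and a median of -0.47. Over all 103 genes of these lists on the array, 7 of 79 with a value passed 2-fold upwards and 12 downwards, and the median was -0.23, against 7, 11 and -0.20 with the other probes of Ets1 and Plppr3. The shares over all genes, 11.0% upwards and 10.1% downwards, are the background for these counts and for those of each list.

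Marker lists of other cells were read beside the members. By the paper's methods, Ficoll separation, described there as isolating monocytes, and removal of dead cells came before a lineage antibody panel and the LSK gate. The panel with the gate would remove cells that carry markers of mature blood lineages. Of 9 mature neutrophil markers on the array, 7 were well above background on each array, with a median log2 ratio of -0.05, 1 at least 2-fold higher (Il1r2), 2 at least 2-fold lower (Mmp8 and Clec4d) and intensities that summed to 123919 (nondiabetic) and 136011 (diabetic). Nearly all of that sum came from 3 probes, those of Csf3r (56358 and 65348, log2 ratio 0.10), Itgam (34686 and 35189, -0.10) and Trem1 (31821 and 34391, -0.01), and the other probes of Itgam had -1.12 and -1.30. Signals of different probes do not compare as amounts, so these sums describe probe signals only. Mmp9 was well above background on neither array, like Ltf among the members. Of 9 granulocyte-monocyte progenitor markers, 6 were well above background on the nondiabetic and 7 on the diabetic array, with a median of -0.39, 1 at least 2-fold lower (Ms4a3) and a summed intensity of 6470 and 5335, led by Csf1r, while Cebpe and Fcnb were well above background on neither array. Csf1r had a log2 ratio of -0.34 on its brightest probe and -1.17 on another (196 and 94.2). The median of the granulocyte-monocyte progenitor list lay below 0, with 2 of its 7 values above 0. Mpo, Ctsg, Prtn3, S100a8 and the bound of Ngp also lay below 0, while Elane, S100a9, Lcn2 and Camp lay above it. The part of the granulocyte-monocyte progenitor list in the values of the members was not tested. Markers of eosinophils, basophils or mast cells were well above background for 4 of 8 on each array, with a median of -0.57, 2 at least 2-fold lower (Cpa3 and Fcer1a), and a summed intensity of 271 and 114, led by Cpa3 in nondiabetic and Prg2 in diabetic mice. Mcpt8, Ms4a2 and Cma1 of this list were well above background on neither array. Cpa3, Epx (20.9 and 16.6) and Prg2 (55.6 and 40.7) were so on both. The part of this list in the values of S100a8 was not tested.

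The remaining marker lists held values on both sides. Monocyte or macrophage markers, of cells that like neutrophils express S100a8 and S100a9, were well above background for 7 and 8 of 9, with 2 past 2-fold upwards (Cx3cr1 and Cd5l), 1 downwards (Cd68) and a summed intensity of 1169 and 1108. Upward calls only were found among erythroid markers (2 of 9, Hba-a1 and Slc4a1, summed 3809 and 8054), megakaryocyte markers (1 of 6, Gp9, summed 1392 and 1800) and B cell markers (2 of 8, Cd79a and Igll1, summed 756 and 1150). T or NK cell markers had 2 of 8 past 2-fold downwards (Cd3d and Il2rb, summed 1674 and 1523), stroma or endothelium markers 1 of 8 in each direction (Pecam1 up, Col1a2 down, summed 1125 and 1865), and stem and progenitor markers 1 of 10 in each (Slamf1 up by its bound, Mecom down, summed 17368 and 20442). The other probe of Mecom had 41.0 and 39.9, a log2 ratio of -0.16 that did not pass 2-fold. The part of these lists in the values of the members was not tested.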

How the data were processed

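LSK cells were measured on 2 Agilent 1-colour arrays, 1 per condition. The deposited spot values are intensity, which the authors' scanner software (Agilent Feature Extraction 11.5.1.1) corrected for background within each array. The authors also deposited a table that equals this intensity times 1 constant per array (log2 factors 3.48 and 3.35, column medians 332 and 329), and the paper's methods do not name a normalization.

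Here each intensity was taken to log2 minus the 75th percentile of its array (non-control spots). Outlier spots of either array (192 and 147) were removed from both, spots of a probe were averaged, and 55661 of 55681 probes remained. A probe was well above background if the software had flagged most of its spots so. Where this held on 1 array only, the dim value was replaced by the higher of itself and the lowest value well above background, and the result is written as "at least". Not every such probe got a bound: that of Lepr had none, with a scaled dim value (-3.77) above its detected one (-3.79). Transcript identifiers, without versions, were matched to a RefSeq table of GRCm38.p6, which named 28319 probes, and the brightest probe stood for a gene, with every probe of the members given. Error of a ratio was propagated from the software's error of each signal.

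The genes named are the 10 members and genes of fixed lists: other primary, and other secondary and tertiary granule genes, other S100 genes, receptors, protease inhibitors, regulators, granule genes of other cells, chromosomal neighbours, and the marker lists given above. From the lists, genes past 2-fold were named, not all with values, and genes with a known link to a member were given with values. The members and lists were chosen with earlier results of these data known. No test was made with 1 array per condition, and the likeness of other genes' patterns to the members was not measured over 2 arrays.

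Alternatives were normexp (offset 50, on median spot and local background signals), loess (span 0.3), quantile normalization, median centring of the log2 ratios, no detection filter, leaving out bounds, the mean over the probes of a gene, the authors' table, and a floor at the lowest signal well above background. The other probe of Ets1 and Plppr3 was added after seeing the data. The steps were tested on simulated data with changes well past 2-fold. Recovery was checked only for probes measured on both arrays, not for bounds or for ratios near 2-fold. Software was R 4.3.3 (limma 3.58.1) and Python 3.11.15 (pandas 2.3.3, numpy 2.4.6, matplotlib 3.10.9).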

Additional observations from a re-analysis of the deposited data

How the results depend on the processing

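The 9 members with a ratio or bound kept their sign under all alternatives that gave a value, 9 for each gene and 8 for Ngp, which has no value when bounds are left out. Mpo ranged from -0.69 to -0.66, Ctsg from -0.59 to -0.52, Elane from 0.41 to 0.52, Camp from 0.40 to 0.58, S100a8 from -1.49 to -0.54, and Ngp from -0.79 to -0.24. Prtn3 (-0.11 to -0.0050), S100a9 (0.07 to 0.14) and Lcn2 (0.10 to 0.19) stayed within their errors, so that their kept sign gives no direction. The authors' table and median centring shift all measured ratios by a constant and could alter the values little. Settings for dim or multiple probes cannot alter a gene with 1 probe well above background on both arrays, which holds for 7 of the members. Ltf had a value only with no detection filter (0.12) and with the floor (-0.14). Both signals of Ltf lay below the floors. Its floor value is thus the ratio of the 2 floors after scaling and holds no direction for Ltf.

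Under normexp, members at least 2-fold lower went from 1 to 0, the median of the S100 pair from -0.69 to -0.20, all genes at least 2-fold higher from 1667 to 597 and lower from 1538 to 497, and genes of the related lists from 7 to 3 and from 12 to 7. Normexp differs both in its offset of 50 and in its input, and which of them moved these values was not tested. The median of all members with a value was -0.10, and -0.0050 under normexp and -0.0011 both with no detection filter and without bounds. The median of the secondary granule members ranged from 0.02 with the floor to 0.37 without bounds. The lower end rests in part on the floor value of Ltf. The median over all genes was 0.02, and -0.09 with no detection filter and -0.14 with the floor. That last value is the one given to any gene below the floor on both arrays.

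No replicate was left out, since each condition has a single array. No paired analysis was possible because the conditions share fewer than 2 replicate numbers. Signal over background limits Ngp and Ltf most.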
